A study of Mus musculus with 46 samples.

Results

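The genes described here are 98 solute carriers, membrane transporter genes that follow the naming pattern of the Slc family and were well expressed in mouse microglia, the resident macrophages of the brain. They were chosen from the 342 rows with such a symbol in the developmental table, without Slc2a1 and Slc2a5, because their mean value in control microglia was at least 50 at embryonic day 14 (E14), at birth (P0) or in adults. The other 244 rows stayed below that level at all 3 stages. The measurements were bulk RNA libraries of sorted microglia, 46 in all over 4 deposited tables. A value is the number of reads of a gene multiplied by 1 factor per library, so values can be compared between libraries of a table but not between genes, which differ in length.

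Dicer-deficient microglia lacked the endonuclease that cuts precursor microRNAs. In the adult set they came from Cx3cr1CreER:Dicerfl/- mice of 10 to 12 weeks (n = 3 libraries) and were set against Cx3cr1CreER:Dicer+/- controls (n = 4), so the controls carried the inducible Cre and 1 Dicer allele as well. In the whole-brain set, with the same 2 genotypes and ages, Dicer-deficient microglia were taken 6 h after 1 mg/kg lipopolysaccharide (LPS, a bacterial cell wall component that activates macrophages; n = 4) or at steady state (n = 3), and controls after LPS (n = 4) or at steady state (n = 3). The hippocampal set held 2 and 3 Dicer-deficient libraries after LPS and at steady state, and 2 and 2 control libraries in those states. In the developmental set, Dicer-deficient microglia at P0 came from Cx3cr1Cre:Dicerfl/fl newborns (n = 2), and the controls were Dicerfl/fl mice at E14 (n = 4), at P0 (n = 5, of which 3 are labelled for the Dicer comparison) and at 6 to 8 weeks (n = 5). Cx3cr1 also drives these Cre lines in other macrophages, the controls of the developmental set carry no Cre by their labels, and the labels do not say which libraries came from separate animals, so p-values measure the spread between libraries, which may be technical. By their labels, adult and P0 cells were sorted as CD45intCD11b+F4/80+Ly6C-Ly6G- and E14 cells as CD45+CD11b+F4/80hiLy6C-Ly6G-, a different gate, and the whole-brain steady-state libraries are also called PBS.

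All 10 microglial markers listed were detected in every set, and libraries held 898451 to 4573063 reads. Dicer1 values overlapped between Dicer-deficient and control libraries in each set; reads are not placed along the gene, so this does not check the deletion. Library 33 of the whole-brain controls after LPS stood apart, with P2ry12, a receptor of resting microglia, at 6074 against 974 to 1476 in the other 3. Values without it are given for some of the members where it lies apart from its group or decides a call. Summed erythroid markers were 11198 to 17037 in Dicer-deficient and 18313 to 68381 in control P0 libraries, and neutrophil markers were 7371 to 7654 in the 3 steady-state Dicer-deficient hippocampal libraries. Fewer cells of a type and less RNA per cell cannot be told apart in bulk libraries.

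Solute carriers move amino acids, sugars, ions, vitamins, nucleosides and metabolites across the plasma membrane and the membranes of lysosomes, the Golgi apparatus and mitochondria, and most are driven by ion gradients or by exchange. In macrophages they set the supply of arginine, glutamine and iron, and many family members of the lysosome return digestion products to the cytosol. Some of them act as sensors or need a partner chain, as the y+L amino acid exchangers need Slc3a2.

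The 98 members fell into 39 families. By family number, 20 belonged to the mitochondrial carrier family (Slc25), 18 to amino acid families, 18 to metal ion families, 14 to families for other inorganic ions, 9 to those for sugars or monocarboxylates, 3 to those for nucleotide sugars, and 16 to families for vitamins, nucleosides, peptides, lipids and other organic solutes. A single member may differ from its class in what it carries or where it lies. Nucleotide sugar families, with 3 of 5 rows, and metal ion families, with 18 of 32, were kept most often, and sugar and monocarboxylate families gave 9 of 47. Of the members, 67 reached the level at all 3 stages, 19 at 2 and 12 at 1. Just inside the threshold lay Slc25a46 (50.5), Slc1a5 (52.1) and Slc35a1 (53.2), and just outside it Slc24a3 (49.5), Slc24a5 (48.7) and Slc25a23 (48.1). The symbol pattern took 3 rows that are not transporters by name: Slc9a3r1, a scaffold protein of sodium-proton exchangers, Slc4a1ap, an adaptor of an anion exchanger, and Slc7a6os, the opposite-strand neighbour of Slc7a6. Counting by strand is not stated, so reads of Slc7a6 and Slc7a6os may not be told apart, and reads of Slc25a4 and Slc25a5, which have close copies, are uncertain in the same way. All 98 passed the filter on low values in every table, and the median member had 82 reads per library in the adult set, 191.5 in whole brain, 186.5 in hippocampus and 133 in the developmental set.

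In control microglia the members did not follow 1 course over development. Their levels at E14, P0 and in adults are descriptions only, because these values chose the members. The highest mean lay in adults for 41 members, at P0 for 37 and at E14 for 20, and the like shares of all genes are not given here. Between E14 and adults, 32 members were higher in every adult library than in every E14 library and 24 were lower in every one, against 18.7% and 27.1% of 13666 genes. The median difference of adults from E14 was 0.18 on the log2 scale over members and -0.13 over all genes. From E14 to P0, 28 members were higher without overlap and 8 lower, where all genes gave 9.72% and 15.5%. From P0 to adults 21 were higher and 21 lower, where all genes gave 14.2% and 17.2%.

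Slc1a3, the glutamate and aspartate transporter GLAST, had the largest difference between adult and E14 controls of all members. Its values were 12.6, 22.9, 12.3 and 9.78 at E14, 36.3, 25.5, 34.96, 53.7 and 37.4 at P0 and 604, 693, 336, 267 and 305 in adults, so the 3 stages did not overlap, and adults differed from E14 by 4.802 on the log2 scale. The adult libraries spread widely among themselves. Slc1a3 is an astrocyte gene as well, and the summed astrocyte markers were 22.4 to 56.2 at E14, 10.03 to 15.96 at P0 and 5.02 to 10.2 in adults. Their part in the Slc1a3 values was not tested.

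Slc29a3, the lysosomal nucleoside transporter ENT3, had values of 418, 435, 428 and 384 at E14, 666, 536, 699, 634 and 589.7 at P0 and 976, 1199, 1218, 1312 and 1318 in adults. The 3 stages did not overlap. Slc46a1, the proton-coupled folate transporter, averaged 122 ± 5.45 at E14, 117 ± 33.2 at P0 and 264 ± 57.3 in adults (SD, n = 4, 5 and 5), and Slc36a1, a proton-coupled amino acid transporter of the lysosome, averaged 139 ± 17.03, 177 ± 30.1 and 298 ± 59.98 at the same stages. In both genes the P0 and E14 libraries overlapped and the adult libraries lay above them.

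Among the metal carriers, Slc25a37, mitoferrin 1, which brings iron into mitochondria, had values of 37.9, 54.1, 35.1 and 47.2 at E14, 71.2, 67.8, 69.2, 57.8 and 81.7 at P0 and 210.3, 174, 236, 242 and 182 in adults. Mitoferrin 1 is best known from erythroid cells, whose summed markers were 837 to 1327 at E14, 18313 to 68381 at P0 and 58.5 to 2904 in adults. Their part in the Slc25a37 values was not tested. Slc22a17, a receptor for the iron-siderophore carrier lipocalin 2, averaged 103 ± 27.8 at E14, 236 ± 36.5 at P0 and 322 ± 11.1 in adults, and again no 2 stages overlapped. Slc39a8, a zinc and manganese importer (ZIP8), was highest at P0, with 151 ± 33.6 there, 111 ± 8.18 at E14 and 50.6 ± 7.88 in adults.

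Monocarboxylate and sugar transporters went both ways. Slc16a3, the lactate exporter MCT4, had values of 302, 235, 345 and 351 at E14, 125, 79.03, 59.3, 48.97 and 66.6 at P0 and 94.04, 93.9, 101, 107 and 105 in adults. Every E14 library exceeded every later one, while P0 and adult libraries overlapped. Slc16a10, a transporter of aromatic amino acids, averaged 158 ± 16.1 at E14, 58.7 ± 7.01 at P0 and 31.2 ± 7.81 in adults, with no overlap. Slc2a6, the glucose transporter GLUT6, was at 74.8 ± 7.53, 29.8 ± 10.3 and 21.7 ± 10.1 at the same stages. Slc16a6, a further member of the monocarboxylate family, ran the other way and averaged 586 ± 49.04, 983 ± 64.7 and 1286 ± 204.

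Mitochondrial carriers had their highest mean at E14 more often than any other class, 10 of 20, against 10 of the remaining 78 members. This count and that of the amino acid class below describe values that chose the members, without a share of all genes beside them. Slc25a3, the phosphate carrier that supplies ATP synthesis, averaged 1963 ± 102 at E14, 1631 ± 127 at P0 and 851 ± 185 in adults. Slc25a10, the dicarboxylate carrier, averaged 187 ± 20.3, 158 ± 17.8 and 42.6 ± 13.6. In adults all libraries of both genes lay below those of E14. Of the amino acid class, 11 of 18 members had their highest mean at P0. Slc43a3, which carries purine nucleobases although its family is grouped with amino acids here, averaged 129 ± 8.50 at E14, 89.6 ± 23.2 at P0 and 12.5 ± 2.82 in adults, and adults differed from E14 by -3.30 on the log2 scale, the most negative difference of all members.

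**Figure D1:**
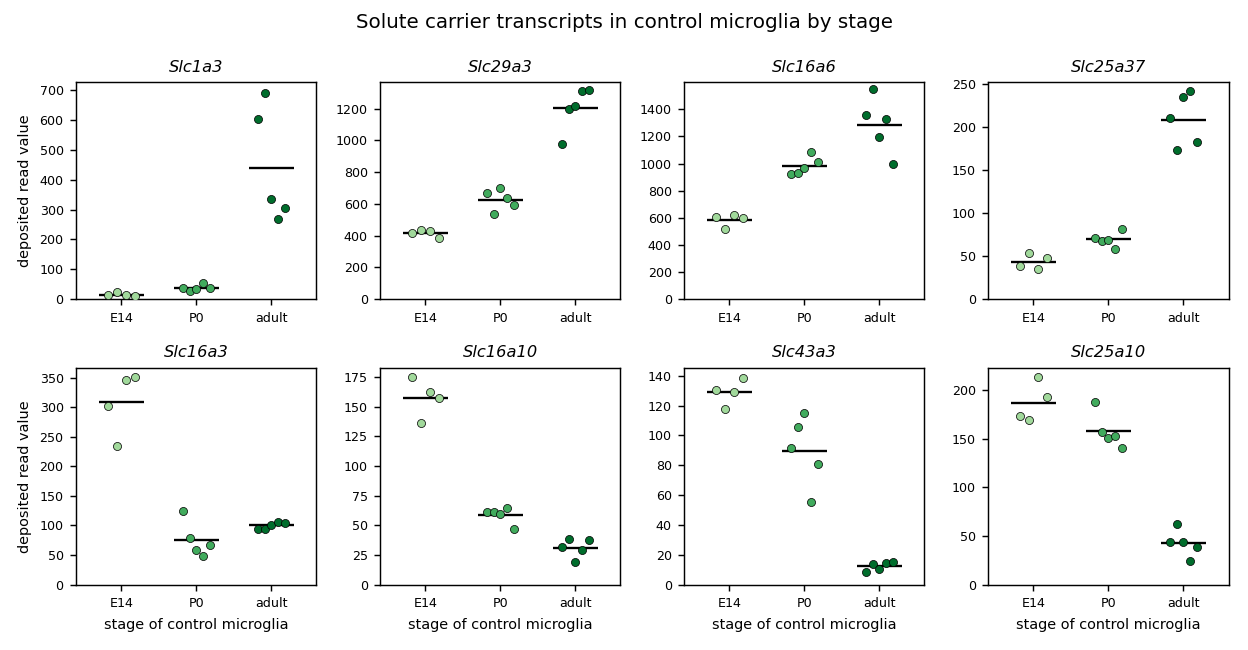
Deposited read values (linear axis from 0) of 8 solute carrier genes in control microglia at E14 (n = 4), P0 (n = 5) and adult age (n = 5); points are libraries and bars are group means. Slc1a3, Slc29a3, Slc16a6 and Slc25a37 had their highest mean in adults, and Slc16a3, Slc16a10, Slc43a3 and Slc25a10 at E14.

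Loss of Dicer in adult microglia raised 8 members and lowered 3, by limma across all genes with a Benjamini-Hochberg adjusted p under 0.05, the threshold used for every call. Of all 11045 genes tested, 5.15% were called, 3.15% higher and 2% lower, and 11 of 98 members are 11.2%. Members were chosen for a high level, while all genes tested include those with few reads, which are harder to call. The shares of members and of all genes are therefore not like for like, here and in every comparison below. The raised genes held 3 amino acid transporters, the cation-chloride family member Slc12a9, the ascorbate transporter Slc23a2, the folate transporter Slc46a1 and its lysosomal relative Slc46a3. The median difference was 0.05 over the members and 0.05 over all genes.

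Slc38a10, an amino acid transporter of the SNAT family, had values of 4669, 1599 and 2855 in Dicer-deficient microglia, against 1173, 1336, 1122 and 1129.8 in controls. All 3 Dicer-deficient libraries were above all controls, the first of them far above, and the log2 difference was 1.22 ± 0.24 (SE; adjusted p = 0.00613, limma). Slc38a9, the arginine sensor of the lysosomal mTORC1 pathway, had 1467, 1452 and 1418 in Dicer-deficient microglia and 931, 981, 924 and 888 in controls. Here libraries of a group lay close together, and the difference was 0.64 ± 0.14 (adjusted p = 0.0117, limma). Slc36a1 had 1355, 1413 and 1298 in Dicer-deficient microglia and 906, 622, 902 and 914 in controls, which did not overlap, although control library 2 lay well below the other 3 (difference 0.71 ± 0.16, adjusted p = 0.016, limma).

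Slc12a9 had 1454, 1679.6 and 1822 in Dicer-deficient microglia, against 792, 669.9, 988 and 704 in controls. The groups did not overlap, and the difference was 1.08 ± 0.17 (adjusted p = 0.000898, limma). Slc23a2, which takes up ascorbate with sodium, had 749, 475 and 1001 in Dicer-deficient microglia and 436, 331, 317 and 282 in controls. The Dicer-deficient libraries were all higher but spread by more than 2-fold, with a difference of 1.07 ± 0.23 (adjusted p = 0.011, limma). Slc46a1 had 1366, 1193 and 1085 in Dicer-deficient microglia and 866, 949, 730.4 and 616 in controls, and Slc46a3, a lysosomal relative, had 1210.1, 1332 and 1919 in Dicer-deficient microglia and 891, 789.5, 961 and 647 in controls. Neither pair of groups overlapped, and the differences were 0.63 ± 0.17 for Slc46a1 and 0.84 ± 0.18 for Slc46a3. Slc16a6 was also raised, by 0.58 ± 0.15.

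The lowered members were the reduced folate carrier Slc19a1, the glutamate transporter Slc1a3 and the mitochondrial citrate carrier Slc25a1. Slc19a1 had 72.6, 104 and 50.99 in Dicer-deficient microglia, against 188, 255, 226 and 175 in controls, without overlap (difference -1.505 ± 0.31, adjusted p = 0.00706, limma). So the 2 folate transporters among the members moved in opposite directions, Slc46a1 higher and Slc19a1 lower. Slc1a3 had 596, 1119.7 and 820.4 in Dicer-deficient microglia and 1381, 1404, 1563 and 1474 in controls, a difference of -0.83 ± 0.18 (adjusted p = 0.0122, limma). Summed astrocyte markers were 23.2 to 38.6 in Dicer-deficient and 0 to 20.5 in control libraries, with Gfap and Gja1 at 0 in all 7 libraries, and their part in the result was not tested. Slc25a1 differed by -0.73 ± 0.21, and its call was lost in each refit without 1 library. Calls that held in every such refit were those of Slc12a9, Slc38a10 and Slc19a1, and those that held under every other setting were 7 of 11.

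At steady state in whole brain, Dicer-deficient microglia had 3 members higher and 4 lower (2.18% of 13423 genes called, 0.797% higher and 1.38% lower; 7 of 98 members are 7.14%). The 3 raised genes, Slc12a9, Slc23a2 and Slc46a1, were all among the 8 raised in the adult set, in separate libraries; none of the 4 lowered genes was among the 3 lowered there.

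Slc12a9 had 1476, 1280.3 and 1455 in Dicer-deficient and 397, 582 and 471 in control microglia. Every Dicer-deficient library held more than 2-fold the highest control, and the log2 difference was 1.55 ± 0.22 (adjusted p = 0.0011, limma), a call that held in every refit without 1 library. Slc46a1 had 617, 937 and 612 in Dicer-deficient and 265, 302 and 331 in control microglia (difference 1.24 ± 0.32, adjusted p = 0.0483, limma). Slc23a2 had 491, 415 and 351 in Dicer-deficient and 187, 205 and 229.7 in control microglia (difference 1.00 ± 0.23, adjusted p = 0.0291, limma). In both genes the groups did not overlap, and Dicer-deficient library 11b was the highest for Slc46a1; its Cx3cr1 value, 2487, was the lowest of the 6 libraries.

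Lower in Dicer-deficient microglia were a pair of ZIP metal importers, the potassium-chloride cotransporter Slc12a7 (KCC4) and the Golgi sodium-proton exchanger Slc9a8. Slc39a8 had 27, 46.4 and 42.8 in Dicer-deficient and 82.3, 87.5 and 90.7 in control microglia (difference -1.18 ± 0.29, adjusted p = 0.0406, limma). Slc39a11 (ZIP11) had 24.1, 14.8 and 25.7 in Dicer-deficient and 49.2, 53 and 64.3 in control microglia (difference -1.35 ± 0.34). Slc12a7 had 17.4, 15.5 and 27.6 in Dicer-deficient and 48.2, 61.4 and 55.1 in control microglia (difference -1.44 ± 0.30), and Slc9a8 differed by -0.95 ± 0.24. No group overlapped its counterpart in these genes. The falls of Slc39a8, Slc39a11 and Slc9a8 were not called by edgeR on the recovered reads, which differs in both test and scaling and gave 3 members higher and 1 lower (36.6% of all called genes were higher by limma and 52.0% by edgeR), and of the 7 calls only that of Slc12a9 held in every refit without 1 library.

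**Figure D2:**
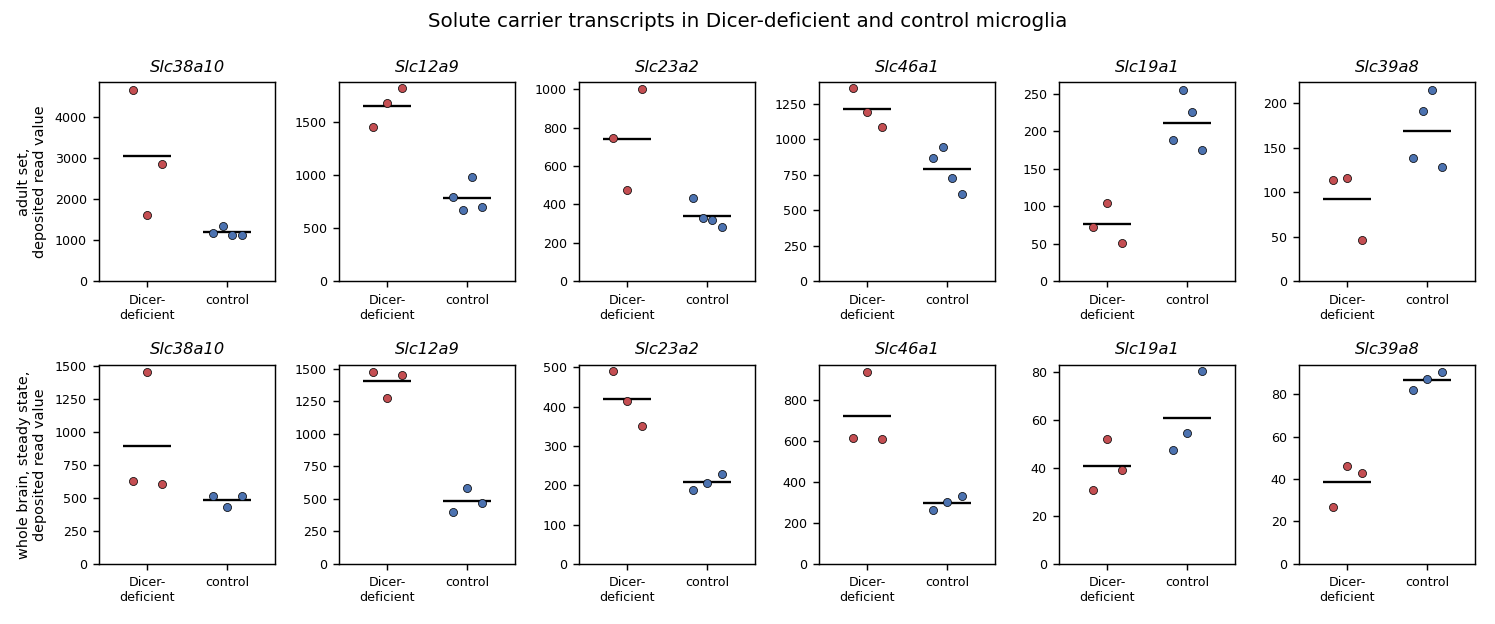
Deposited read values (linear axes from 0) of 6 solute carrier genes in Dicer-deficient (red) and control (blue) microglia, in the adult set (upper row, n = 3 and 4) and in whole brain at steady state (lower row, n = 3 each); points are libraries and bars are group means. Slc38a10, Slc12a9, Slc23a2 and Slc46a1 were higher without overlap in both sets, Slc38a10 without a call in whole brain (adjusted p = 0.168, limma). Slc19a1 separated in the adult set and Slc39a8 in both, with lower values in Dicer-deficient microglia.

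Because Dicer makes microRNAs, 3′ untranslated regions of the members were searched for 7-base matches to the seeds of 6 microRNAs known from myeloid cells, in the longest annotated region of each gene (GENCODE, GRCm38). MicroRNA levels were not analysed here, and a match is a description, not a site. The mature sequences (RefSeq, GRCm38.p6) of let-7a-5p and of miR-223-3p are shown with the seed, bases 2 to 8, in capitals, as examples whose seeds matched called members; the matched stretches are shown with the 7 matching bases in capitals.
mmu-let-7a-5p: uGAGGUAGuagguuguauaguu
Slc12a9, chr5:137314677-137314698, minus strand: tctgtgactctaggCTACCTCa
mmu-miR-223-3p: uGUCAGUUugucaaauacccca
Slc23a2, chr2:132055601-132055622, minus strand: aatctatttatcacAACTGACt
Slc38a9, chr13:112735521-112735542, plus strand: tgtgatgcaaagtgAACTGACc
Slc16a6, chr11:109452839-109452860, minus strand: aaagcaatgccacgAACTGACa

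Over all members the let-7 seed match CTACCTC occurred in 10 of 98 regions (10.2%), close to the 9.43% of 18126 genes, and the miR-223 match AACTGAC in 15 (15.3%), against 8.51% of genes. The matches of miR-21a (ATAAGCT), miR-142a-3p (ACACTAC), miR-146a (AGTTCTC) and miR-155 (AGCATTA) occurred in 12, 7, 15 and 11 members (12.2%, 7.14%, 15.3% and 11.2%), against 7.43%, 6.33%, 11.6% and 8.51% of genes. Member regions were also longer, with a median of 1368 bases against 1016. Slc38a10, Slc46a1 and Slc19a1 held none of the 6 matches, and Slc23a2 also held that of miR-146a. Slc36a1, raised in adults and at P0, held matches of miR-142a-3p and miR-146a. The match of miR-142a-3p also occurred in Slc1a3 and Slc25a1, lower in the adult comparison, and that of miR-21a in Slc39a8 and Slc9a8, lower in whole brain at steady state, so seed matches were found in members called in either direction.

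More members were called for LPS than for loss of Dicer. In whole-brain Dicer-deficient microglia, 22 members rose and 26 fell after LPS (12.2% and 12.8% of 13423 genes, 24.9% in all; 48 of 98 members are 49%). In control microglia 14 rose and 11 fell (7.05% and 7.08% of genes, 14.1% in all; 25.5% of members), and without library 33 these became 23 and 22, including all 25. Of the calls, 32 of 48 in Dicer-deficient microglia and 10 of 25 in controls held in every refit without 1 library. Members that rose in both genotypes included the amino acid transporters Slc7a1 and Slc38a2, the copper transporters Slc31a1 and Slc31a2 and the peptide transporter Slc15a3, and members that fell in both included the iron exporter Slc40a1, Slc46a1, Slc46a3, Slc29a3 and Slc37a2. The median LPS difference of the members was 0.0021 in Dicer-deficient and -0.0056 in control microglia on the log2 scale, and that of all genes -0.04 and -0.05. In controls 49.9% of all called genes were higher, against 63.4% under edgeR, which differs in both test and scaling and called 15 members higher and 6 lower. Microglial markers as a sum were 39954 to 47745 in Dicer-deficient microglia after LPS and 84068 to 86961 at steady state, and 39702 to 80948 after LPS and 84784 to 88624 at steady state in controls.

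Of the 18 members of the amino acid class, 5 rose and 5 fell in Dicer-deficient microglia (lower were Slc36a1, Slc38a6, Slc43a2, the taurine transporter Slc6a6 and Slc7a8), and 4 rose and 1 fell in controls. Over all genes, 12.2% rose and 12.8% fell in Dicer-deficient microglia, and 7.05% and 7.08% in controls. Slc7a1, the arginine importer CAT1, had 271, 279, 343 and 288 after LPS and 34.7, 83.6 and 43.8 at steady state in Dicer-deficient microglia, and 175, 282, 249.9 and 144 after LPS and 40.7, 48.8 and 52.8 at steady state in controls. All libraries after LPS were above those at steady state, with log2 differences of 2.52 ± 0.28 in Dicer-deficient (adjusted p = 1.08e-05, limma) and 2.10 ± 0.28 in control microglia (adjusted p = 0.000761, limma). Slc38a2 (SNAT2), a glutamine and alanine importer, had 1094, 1454, 1400.1 and 1139.7 after LPS and 498, 642 and 773 at steady state in Dicer-deficient microglia, and 959.6, 1317, 1233 and 841 after LPS and 502, 548 and 619 at steady state in controls. It rose by 1.01 ± 0.20 in Dicer-deficient and 0.95 ± 0.20 in control microglia, again without overlap. The exchanger Slc7a6 (y+LAT2) rose by 1.39 ± 0.27 and 1.26 ± 0.27, while its relative Slc7a7 (y+LAT1) rose in Dicer-deficient microglia, by 1.22 ± 0.16, and differed by 0.14 ± 0.16 in controls (adjusted p = 0.624, limma).

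Slc1a5 (ASCT2), a glutamine exchanger, had 21.3, 23.7, 25.4 and 22.4 after LPS and 3.90, 8.40 and 15.2 at steady state in Dicer-deficient microglia, and 137, 152, 162 and 31.7 after LPS and 27.4, 7.60 and 25.3 at steady state in controls. Library 33 was the low control after LPS. It rose in controls, by 2.47 ± 0.55 (adjusted p = 0.00811, limma) and by 3.02 ± 0.46 without library 33, and differed by 1.41 ± 0.55 in Dicer-deficient microglia (adjusted p = 0.0705, limma). Steady-state libraries of both genotypes held few reads of this gene.

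Among sugar carriers, Slc2a6 rose by 1.75 ± 0.43 in Dicer-deficient and 1.62 ± 0.43 in control microglia, and Slc2a8 (GLUT8) differed by -1.75 ± 0.34 and -1.68 ± 0.34, a fall in both. Slc37a2, an exchanger of sugar phosphates in the endoplasmic reticulum, had 58.3, 55.1, 59.1 and 39.9 after LPS and 426, 399 and 552 at steady state in Dicer-deficient microglia, and 90.8, 60.5, 98.5 and 321 after LPS and 419.8, 483 and 592 at steady state in controls. Libraries after LPS were all below those at steady state, library 33 being the nearest to them, with differences of -3.09 ± 0.38 (adjusted p = 2.57e-05, limma) and -2.09 ± 0.38 (adjusted p = 0.00337, limma), and -2.58 ± 0.23 in controls without library 33. Slc16a3, the lactate exporter, rose in Dicer-deficient microglia by 0.82 ± 0.27, and in controls it was called without library 33.

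Of the 20 mitochondrial carriers, 1 rose and 2 fell in Dicer-deficient microglia (12.2% and 12.8% of all genes) and 1 rose in controls (7.05% of all genes). The member raised in both was Slc25a22, a glutamate carrier, by 1.19 ± 0.34 and 1.37 ± 0.34. Slc25a37 fell in Dicer-deficient microglia, with a difference of -1.10 ± 0.18.

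Of the 18 metal ion transporters, 6 rose and 2 fell in Dicer-deficient microglia (12.2% and 12.8% of all genes), and 5 rose and 1 fell in controls (7.05% and 7.08%). Slc11a2 (DMT1), an importer of ferrous iron, had 196, 255, 313 and 433 after LPS and 36.6, 66.8 and 51.4 at steady state in Dicer-deficient microglia, and 125, 95.1, 113 and 77.2 after LPS and 47.3, 51.3 and 54 at steady state in controls. All libraries after LPS were above steady state, by 2.49 ± 0.27 in Dicer-deficient (adjusted p = 9.66e-06, limma) and 0.98 ± 0.27 in control microglia (adjusted p = 0.0225, limma). Slc40a1, ferroportin, the only known cellular iron exporter, had 50.9, 78, 72.7 and 96.8 after LPS and 469.5, 255 and 544 at steady state in Dicer-deficient microglia, and 55.7, 66.6, 44.8 and 313 after LPS and 398, 287 and 283 at steady state in controls. The Dicer-deficient groups did not overlap, while control library 33 lay among the steady-state controls, and the differences were -2.45 ± 0.47 and -1.89 ± 0.47, or -2.51 ± 0.28 in controls without that library. The control call was lost under edgeR with all libraries.

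The copper importer Slc31a1 (CTR1) rose by 1.23 ± 0.27 in Dicer-deficient and 1.36 ± 0.27 in control microglia, and its endosomal relative Slc31a2 by 1.34 ± 0.27 and 1.38 ± 0.27. Slc39a7, a zinc transporter of the endoplasmic reticulum and Golgi, rose by 1.08 ± 0.22 and 0.73 ± 0.22. These calls in Dicer-deficient microglia held in every refit without 1 library. Beside them, the metal-binding metallothionein genes Mt1 and Mt2 rose in both genotypes, Mt2 averaging 5161 after LPS and 25.8 at steady state in Dicer-deficient microglia, and 1353 after LPS and 20.03 at steady state in controls.

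In the other inorganic ion families, Slc13a3, a sodium-coupled dicarboxylate transporter, rose by 1.44 ± 0.38 in Dicer-deficient and 1.70 ± 0.38 in control microglia. Slc12a2 (NKCC1), which brings chloride into cells, fell in both, with differences of -1.36 ± 0.43 and -1.85 ± 0.43, and the endosomal sodium-proton exchanger Slc9a9 likewise, with -1.48 ± 0.38 and -1.43 ± 0.38. Library 33, at 259.5 for Slc12a2 and 303 for Slc9a9, lay among the steady-state controls, and without it the control differences were -2.38 ± 0.28 and -1.94 ± 0.22. Slc12a7 and Slc9a8, which were lower at steady state without Dicer, rose after LPS in Dicer-deficient microglia by 1.41 ± 0.28 and 1.38 ± 0.22. In controls they differed by 0.72 ± 0.28 and 0.06 ± 0.22, with adjusted p of 0.0986 and 0.878 (limma). The lower steady-state values and the rises after LPS rest on the same 3 steady-state Dicer-deficient libraries.

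Most called members of the organic solute families fell, 9 of 11 in Dicer-deficient and 4 of 6 in control microglia. Over all genes, 12.8% fell and 12.2% rose in Dicer-deficient microglia, and 7.08% and 7.05% in controls. Slc46a3 had 78.7, 64.4, 79.2 and 72.2 after LPS and 457, 503 and 393 at steady state in Dicer-deficient microglia, and 35.1, 20.8, 16.2 and 249.6 after LPS and 328, 349 and 392 at steady state in controls. All libraries after LPS were lower, library 33 the least, with differences of -2.60 ± 0.58 (adjusted p = 0.00316, limma) and -3.05 ± 0.58 (adjusted p = 0.004, limma), and -3.90 ± 0.24 in controls without it. Slc29a3 had 403, 381, 319 and 371 after LPS and 1379, 860.1 and 1653 at steady state in Dicer-deficient microglia, and 722, 655, 806 and 1603 after LPS and 1806, 1743 and 1955 at steady state in controls, and differed by -1.77 ± 0.27 and -1.05 ± 0.27. Its control difference without library 33 was -1.34 ± 0.20. Slc46a1 differed by -2.55 ± 0.30 in Dicer-deficient and -1.04 ± 0.30 in control microglia, where all 3 control libraries other than 33 were below 127 and library 33 was at 298. Its control call was lost under edgeR and in 6 of 7 refits without 1 library, the exception being the refit without library 33 (difference -1.39 ± 0.21).

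The members of these families that rose were Slc15a3 and Slc52a2. Slc15a3 is an endolysosomal transporter of histidine and small peptides, and had 1742, 1782, 1673 and 1893 after LPS and 627, 726 and 584 at steady state in Dicer-deficient microglia, and 813, 1049, 1094 and 556 after LPS and 553, 509 and 590.4 at steady state in controls. Groups did not overlap in Dicer-deficient microglia, and library 33 lay within the range of steady-state controls. The differences were 1.46 ± 0.20 (adjusted p = 7.82e-05, limma) and 0.63 ± 0.20 (adjusted p = 0.0488, limma). The riboflavin transporter Slc52a2 also rose, by 1.15 ± 0.27 and 1.06 ± 0.27.

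**Figure D3:**
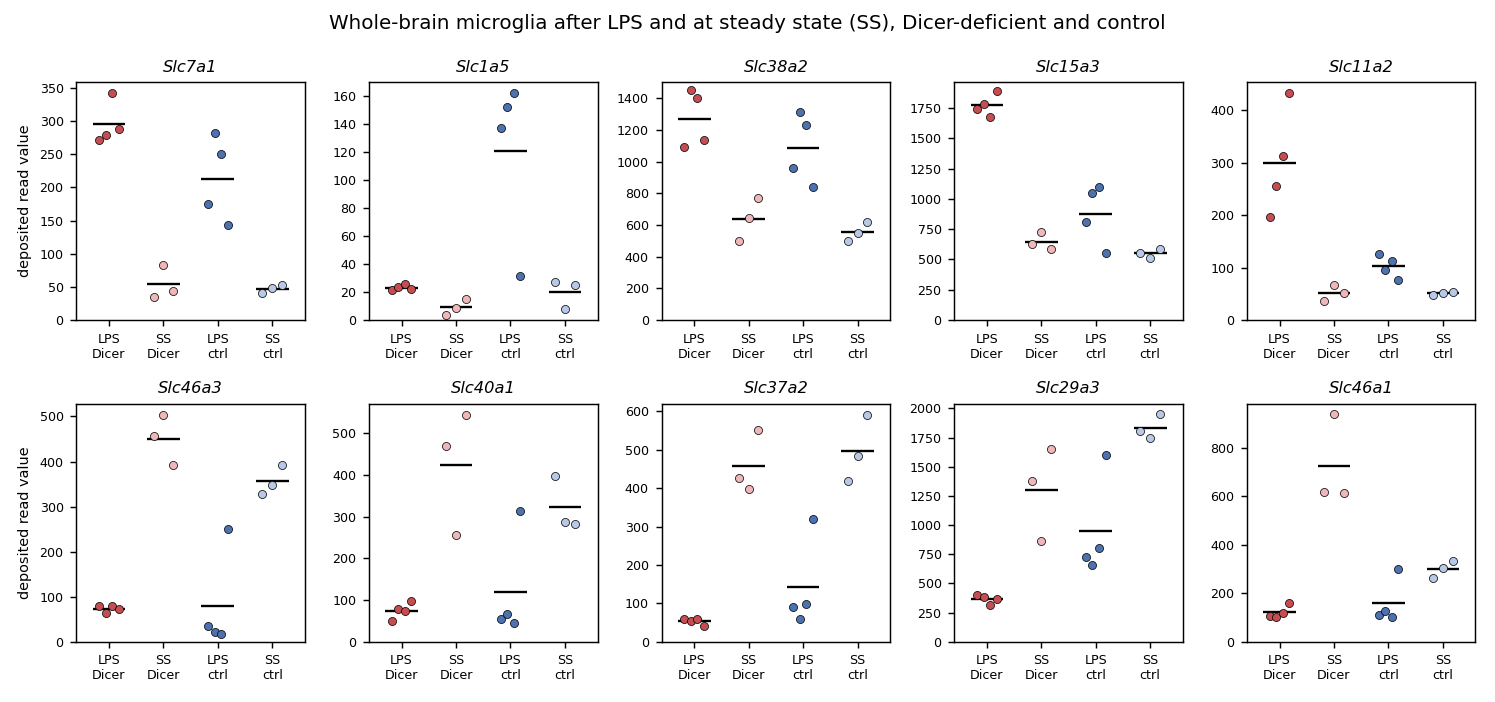
Deposited read values (linear axes from 0) of 10 solute carrier genes in whole-brain microglia, from left to right Dicer-deficient after LPS (n = 4) and at steady state (SS, n = 3) and control after LPS (n = 4) and at steady state (n = 3); points are libraries and bars are group means. The upper row holds genes with higher values after LPS and the lower row genes with lower values, and the control library after LPS that stands near the steady-state controls in the lower row is library 33.

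**Figure D4:**
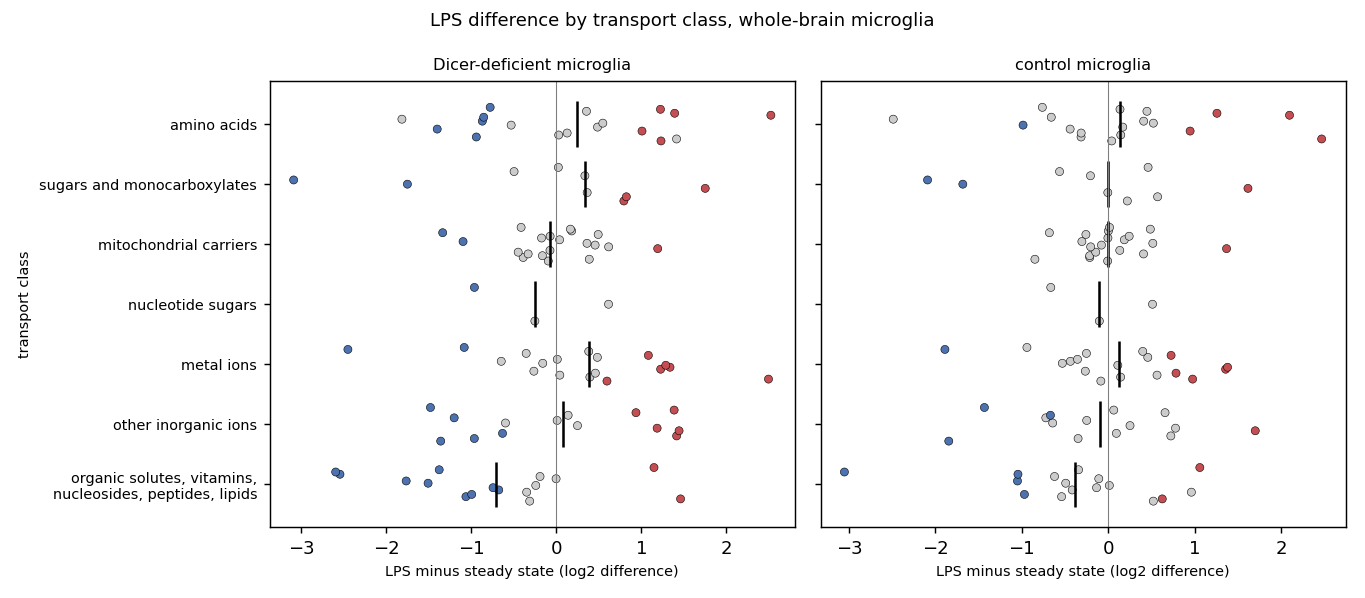
Log2 difference between LPS and steady state of the 98 members in whole-brain microglia by transport class, Dicer-deficient left and control right; points are genes (red called higher, blue called lower, grey not called) and black lines are class medians. The class of organic solutes has the lowest medians, -0.71 in Dicer-deficient and -0.38 in control microglia.

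The LPS differences of the 2 genotypes rest on separate libraries. Of the members, 21 were called in both, all in the same direction, 27 in Dicer-deficient microglia only and 4 in controls only; 12 of the 14 raised in controls (85.7%) are 54.5% of the 22 raised without Dicer, and 9 of the 11 lowered (81.8%) are 34.6% of the 26. These counts do not show a different response. In the test of the difference itself, LPS by genotype, limma called 0 members (0.171% of 13423 genes called; 21 members at an unadjusted p under 0.05), edgeR called 0 and DESeq2 called 6.

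The members nearest to a call were Slc7a7 and Slc9a8. Slc7a7 had 1406, 966, 1228 and 1104 after LPS and 504, 460.2 and 533 at steady state in Dicer-deficient microglia, and 655, 694, 722 and 637 after LPS and 592, 693 and 567 at steady state in controls. In Dicer-deficient microglia the groups were far apart, and in controls they overlapped. The LPS difference without Dicer minus that in controls was 1.09 ± 0.23 (adjusted p = 0.0595, limma). DESeq2 called Slc7a7, Slc9a8, Slc11a2 and Slc39a1 as higher and Slc46a1 and Slc43a2 as lower, and without library 33 limma called Slc7a7 (1.06 ± 0.22) and Slc43a2 (-1.49 ± 0.28), a transporter of neutral amino acids.

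**Figure D5:**
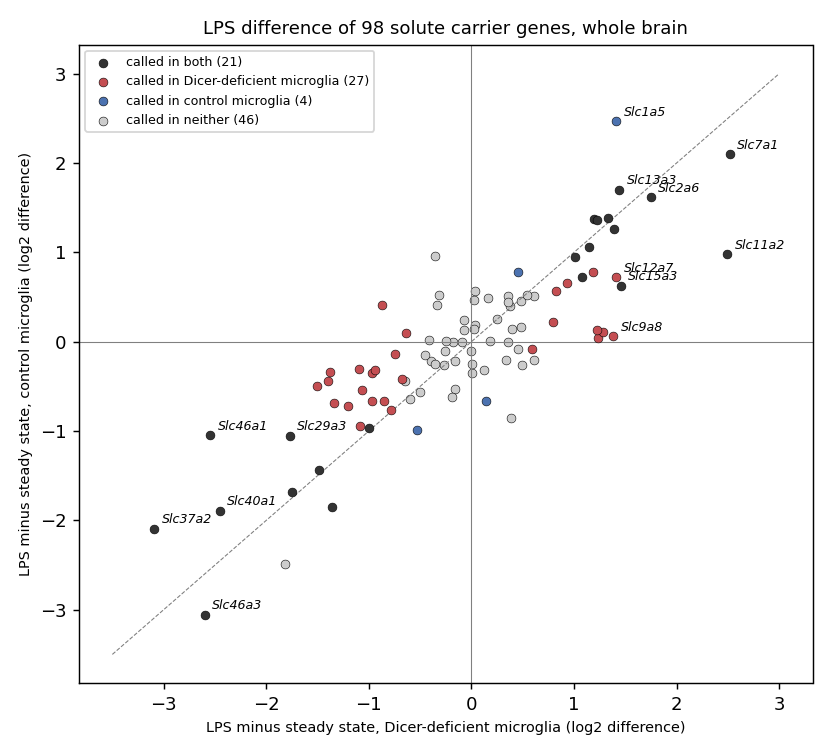
Log2 difference between LPS and steady state of the 98 members in whole brain, in Dicer-deficient (horizontal) and control microglia (vertical); each point is a gene, colours give where it was called, and the dashed line marks equal differences. Genes called in both lie in the upper right and lower left, and Slc11a2 and Slc46a1 lie off the line, with differences further from 0 in Dicer-deficient microglia.

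After LPS, 13 members were higher and 10 lower in Dicer-deficient than in control whole-brain microglia (3.93% and 5.46% of 12937 genes, 9.4% in all; 23 of 98 members are 23.5%). Without library 33 the counts were 13 and 13, with the calls of Slc25a25 and Slc39a11 lost. Gained were Slc46a3 as higher and Slc25a4, Slc25a5, Slc3a2 and Slc43a2 as lower. Slc46a3 differed by 0.79 ± 0.54 with library 33 and by 1.64 ± 0.22 without it. This comparison shares its libraries with the LPS comparisons above. Of the 8 raised by loss of Dicer in the adult set, 4 were raised here too, Slc12a9, Slc38a10, Slc38a9 and Slc16a6 (50% of the 8 and 30.8% of the 13). Slc1a3 was lower in the adult set but higher after LPS.

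Slc1a5 was the member with the largest fall. Its 4 Dicer-deficient libraries, given above, all lay below all 4 controls, also below library 33, and the difference was -2.09 ± 0.51 (adjusted p = 0.0159, limma). Slc19a1 had 56.5, 14.4, 31.3 and 35.5 in Dicer-deficient and 187, 101, 118 and 82.2 in control microglia after LPS. The groups did not overlap, and the difference was -1.88 ± 0.36 (adjusted p = 0.00333, limma), of the same direction as in the adult set. Slc48a1, which moves heme out of endolysosomes, had 22.2, 39, 33.7 and 67.8 in Dicer-deficient and 88.7, 109.8, 73.5 and 132 in control microglia (difference -1.37 ± 0.29, adjusted p = 0.00681, limma).

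The nucleoside transporters Slc29a3 and Slc29a1 (ENT1, of the plasma membrane) were lower as well, with differences of -1.27 ± 0.25 and -0.96 ± 0.20, and so were Slc39a8 (-1.28 ± 0.25), Slc39a11 (-0.98 ± 0.29, and -0.92 ± 0.32 with an adjusted p of 0.0775 by limma without library 33), Slc38a6 (-1.10 ± 0.27), Slc22a17 (-0.91 ± 0.21) and Slc25a37 (-0.68 ± 0.17). Lcn2, the transcript of the ligand of Slc22a17, was at 1415 to 2603 in Dicer-deficient and 208 to 640 in control microglia after LPS, and its part in the result was not tested. Slc39a8 was lower at steady state too, as was Slc39a11. For Slc29a3 the difference after LPS was -0.98 ± 0.19 without library 33.

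Among the 18 metal ion transporters 3 were higher and 2 lower (3.93% and 5.46% of all genes). Slc11a2 had the values given above and differed by 1.498 ± 0.25 (adjusted p = 0.00136, limma). Slc11a1 (NRAMP1), the metal exporter of the phagosome, had 3288, 2750.3, 3165 and 3659 in Dicer-deficient and 1080.4, 1742, 1723 and 1658 in control microglia, which did not overlap (difference 1.07 ± 0.18, adjusted p = 0.00145, limma). It is also expressed by neutrophils, whose summed markers were 240 to 3293 in Dicer-deficient and 121 to 3797 in control microglia, and their part in the result was not tested. The zinc importer Slc39a1 differed by 1.11 ± 0.20.

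Of the remaining raised members, Slc15a3 differed by 1.06 ± 0.19 (adjusted p = 0.00222, limma) and had no overlap. Slc38a10 had 1070.3, 722, 1086 and 771 in Dicer-deficient and 399, 399, 355 and 415 in control microglia, which did not overlap, a difference of 1.19 ± 0.23 (adjusted p = 0.00417, limma). Slc12a9 differed by 0.82 ± 0.19, Slc7a7 by 0.78 ± 0.15, Slc1a3 by 0.94 ± 0.25 and the mitochondrial ATP-magnesium carrier Slc25a25 by 1.07 ± 0.31. In library 33 Slc25a25 was at 24.8, against 50 to 69.1 in the other controls, and without it the difference was 0.76 ± 0.26 (adjusted p = 0.0744, limma), no longer called. Slc25a10, Slc38a9, Slc25a28 (mitoferrin 2) and Slc16a6 completed the list with differences of 0.73 to 1.00. The calls of 14 of the 23 held in every refit without 1 library, among them Slc1a5, Slc19a1, Slc11a2, Slc11a1, Slc15a3, Slc38a10 and Slc12a9.

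The hippocampal set, with 2 or 3 libraries a group, had few calls for genotype. At steady state limma called 0 members (0.17% of 12366 genes called; 14 members at an unadjusted p under 0.05), edgeR 0 and DESeq2 3. The members with the smallest p were Slc38a10, with 921, 1122 and 1132 in Dicer-deficient and 411 and 389.8 in control microglia (difference 1.39 ± 0.33, adjusted p = 0.126, limma), and Slc12a9, with 761, 676 and 835 in Dicer-deficient and 347 and 349.9 in control microglia (difference 1.11 ± 0.27, adjusted p = 0.139, limma). Both had all Dicer-deficient libraries above both controls, as in the adult set, and DESeq2 called both. Slc9a8, lower without Dicer in whole brain at steady state, had the opposite sign here, with 190.3, 173 and 179.9 in Dicer-deficient and 101 and 61.05 in control microglia, without overlap (difference 1.20 ± 0.37, adjusted p = 0.242, limma). The steady-state Dicer-deficient libraries also held the neutrophil markers named above, against 417 to 2456 in the controls, and their part in these values was not tested. After LPS, Slc29a3 was the 1 member called (0.307% of genes), lower in Dicer-deficient microglia, with 292 and 366 against 859.8 and 871 in controls (difference -1.403 ± 0.24, adjusted p = 0.0303, limma), a call lost in each refit without 1 library.

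LPS changed 17 hippocampal members in Dicer-deficient microglia, 8 higher and 9 lower (3.87% and 4.61% of genes, 8.47% in all; 17 of 98 members are 17.3%), and 13 in controls, 6 higher and 7 lower (2.35% and 2.89%, 5.23% in all; 13.3% of members). All 9 lowered and 7 of the 8 raised in Dicer-deficient microglia were called in the same direction in whole brain. Across the 4 LPS comparisons, over both regions and genotypes, 3 members rose in each (Slc7a1, Slc38a2 and Slc15a3) and 4 fell in each (Slc29a3, Slc40a1, Slc46a3 and Slc9a9).

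Slc7a1 had 257 and 318 after LPS and 34.9, 1.87 and 26.7 at steady state in Dicer-deficient microglia, and 292 and 411 after LPS and 24.7 and 6.26 at steady state in controls. All libraries after LPS were far above steady state. Slc46a3 had 34.7 and 66.6 after LPS and 397, 587 and 463 at steady state in Dicer-deficient microglia, and 39.97 and 30.5 after LPS and 205 and 351 at steady state in controls, again without overlap (differences -3.28 ± 0.41 and -2.91 ± 0.45). Slc40a1 had 140.2 and 109 after LPS and 368, 426 and 455 at steady state in Dicer-deficient microglia, and 66.1 and 31.7 after LPS and 204 and 306 at steady state in controls. Its Dicer-deficient and control groups were all lower after LPS. Slc9a8 had 140.2 and 214 after LPS in Dicer-deficient and 185 and 234 in control microglia, LPS differences of -0.06 ± 0.37 (adjusted p = 0.957, limma) and 1.397 ± 0.40 (adjusted p = 0.0689, limma), so the larger difference was in controls, unlike in whole brain, and neither was called. Slc1a5 was called in controls, with 85.7 and 219.6 after LPS; the 2 controls at steady state were at 2.06 and 0.783, 3 reads and 1 read, too few to give a fold.

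Slc3a2, the heavy chain that carries Slc7a6 and Slc7a7 to the membrane, rose in both hippocampal genotypes, by 0.91 ± 0.25 and 1.13 ± 0.27. In whole brain it differed by 0.55 ± 0.20 in Dicer-deficient and 0.52 ± 0.20 in control microglia (adjusted p = 0.0587 and 0.0962, limma), and it was called in controls without library 33. The calls that held in every hippocampal refit were those of Slc29a3, Slc46a1 and Slc46a3 in Dicer-deficient microglia, and 0 of 13 held in controls, where leaving out steady-state library 2 left 0 calls. The summed border macrophage markers were 1.39 to 20.2 after LPS and 298 to 352 at steady state in Dicer-deficient microglia, and 0.816 to 33.002 after LPS and 280 to 461 at steady state in controls; their part in these results was not tested. The test of LPS by genotype called 0 members (0.0162% of genes called; 7 at an unadjusted p under 0.05; edgeR 0, DESeq2 0).

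At P0, 96 members could be tested for genotype, since 2 (Slc25a25 and Slc25a46) had been chosen through P0 controls alone. Limma called 2 higher and 0 lower in Dicer-deficient microglia (1.04% and 0.444% of 13064 genes, 1.48% in all; 27 members at an unadjusted p under 0.05), and edgeR and DESeq2 each called 5 higher and 3 lower. Slc36a1 had 473 and 487 in Dicer-deficient microglia, against 204, 143 and 183 in the 3 controls (difference 1.45 ± 0.27, adjusted p = 0.0278, limma). Slc9a3r1 had 411 and 238 in Dicer-deficient microglia, against 108, 67.2 and 87.4 in controls (difference 1.85 ± 0.33, adjusted p = 0.0257, limma). In both genes the Dicer-deficient libraries were at least 2-fold above the highest control, and leaving out any 1 control ended both calls.

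Slc36a1 was thus higher without Dicer both here and in the adult set, in separate libraries. In whole brain it was not called and its groups overlapped, at steady state (0.79 ± 0.29) and after LPS (0.16 ± 0.25). The same held in hippocampus (0.19 ± 0.30 and -0.19 ± 0.33). At P0 the next smallest p belonged to Slc2a6, with 98.8 and 129.9 in Dicer-deficient and 46.5, 19.9 and 27.4 in control microglia (difference 1.91 ± 0.40, adjusted p = 0.0511, limma), and to Slc39a8, with 46.8 and 74.9 in Dicer-deficient and 145, 208 and 149 in control microglia (difference -1.47 ± 0.32, adjusted p = 0.0557, limma). Neither pair of groups overlapped. Slc12a9, with 925 and 513 in Dicer-deficient and 337, 261 and 248 in control microglia, had no overlap either (difference 1.298 ± 0.32, adjusted p = 0.0793, limma). With all 5 P0 controls 8 members were higher and 7 lower, Slc12a9, Slc23a2 and Slc46a1 among the higher. The values of Dicer-deficient library 1 summed to 2.58e+06, against 1.75e+06 to 1.96e+06 in the other libraries of the developmental set. Limma used these values, and this library was the higher of the pair for Slc9a3r1 and Slc12a9. Dicer-deficient library 1 stood apart, with 992317 reads and Cx3cr1 at 647 against 3129 in library 2, and without it 5 members were higher and 4 lower. Without library 2 the counts were 24 and 21, with the lone library assumed to vary as the controls do.

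Of 35 listed genes that work with these transporters, 33 were tested in whole brain. After LPS 13 rose and 2 fell in Dicer-deficient microglia and 9 rose and 0 fell in controls, against 12.2% and 12.8% of all genes in Dicer-deficient microglia and 7.05% and 7.08% in controls. Fth1, the heavy chain of the iron store ferritin, averaged 20333 after LPS and 6462 at steady state in Dicer-deficient microglia, and 13902 after LPS and 5189 at steady state in controls. Tfrc, the transferrin receptor, averaged 79.5 after LPS and 33.5 at steady state in Dicer-deficient microglia, and 127 after LPS and 27.4 at steady state in controls. Atf4, the regulator that induces amino acid transporters when amino acids run short, averaged 1207 after LPS and 598 at steady state in Dicer-deficient microglia, and 1245 after LPS and 726 at steady state in controls, and rose in both, by 1.02 ± 0.23 and 0.74 ± 0.23. Without Dicer, Ftl1, the ferritin light chain, was lower in the adult set (difference -0.86 ± 0.22), in whole brain at steady state (-1.37 ± 0.30) and after LPS (-0.95 ± 0.26). Asns, a further target of Atf4, rose after LPS by 1.71 ± 0.53 in Dicer-deficient and 3.41 ± 0.53 in control microglia.

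The rows below the level gave fewer calls. Of the 244, 114 passed the filter in whole brain, and 15 rose and 7 fell after LPS in Dicer-deficient microglia (12.2% and 12.8% of all genes), and 12 rose and 1 fell in controls (7.05% and 7.08% of all genes).

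RefSeq promoter windows, 250 bases before to 50 after a start (GRCm38.p6), matched 76 of the 98 members by symbol, with 104 windows. The E-box CACGTG, searched on both strands, occurred in 15.4% of member windows and 7.15% of all 32851. The AP-1 motif TGANTCA, which JUN and FOS proteins bind, occurred in 5.77% and 7.81%. Further motifs were searched too. Also more frequent in member windows were the Sp-type GC box (70.2% and 35.7%), the antioxidant response element (23.1% and 12.4%) and the NF-kB site (10.6% and 8.46%). Less frequent there were the CCAAT box (33.7% and 37.4%), the ETS-type motif GGAAGTG and the interferon-stimulated and amino acid response elements. A higher share was thus not particular to the E-box. The windows shown are those of Slc7a1 and Slc37a2, which moved in opposite directions after LPS and both hold an AP-1 match, and of Slc12a9 and Slc36a1, called higher without Dicer in some sets, which hold 1 and 2 E-box matches. Only AP-1 and E-box matches are in capitals, and none of them overlapped another in these windows.
Slc7a1, chr5:148399855-148400154, minus strand: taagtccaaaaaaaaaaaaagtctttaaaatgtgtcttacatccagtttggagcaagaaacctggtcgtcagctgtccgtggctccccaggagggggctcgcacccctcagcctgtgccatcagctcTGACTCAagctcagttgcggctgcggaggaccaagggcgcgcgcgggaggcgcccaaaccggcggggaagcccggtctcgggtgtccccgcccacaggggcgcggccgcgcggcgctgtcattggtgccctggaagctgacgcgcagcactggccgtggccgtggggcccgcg
Slc37a2, chr9:37255689-37255988, minus strand: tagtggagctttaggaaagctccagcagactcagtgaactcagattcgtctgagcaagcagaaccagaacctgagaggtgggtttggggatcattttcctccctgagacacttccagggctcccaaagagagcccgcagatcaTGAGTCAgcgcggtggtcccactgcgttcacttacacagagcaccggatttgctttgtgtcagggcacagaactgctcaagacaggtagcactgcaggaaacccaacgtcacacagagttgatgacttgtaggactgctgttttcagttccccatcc
Slc12a9, chr5:137333533-137333832, minus strand: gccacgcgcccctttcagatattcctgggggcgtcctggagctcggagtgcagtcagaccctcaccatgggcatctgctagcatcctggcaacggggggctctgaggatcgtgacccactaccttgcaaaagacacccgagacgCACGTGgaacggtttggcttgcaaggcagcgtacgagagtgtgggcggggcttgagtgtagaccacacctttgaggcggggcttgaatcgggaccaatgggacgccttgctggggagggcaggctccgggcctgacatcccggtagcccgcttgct
Slc36a1, chr11:55204090-55204389, plus strand: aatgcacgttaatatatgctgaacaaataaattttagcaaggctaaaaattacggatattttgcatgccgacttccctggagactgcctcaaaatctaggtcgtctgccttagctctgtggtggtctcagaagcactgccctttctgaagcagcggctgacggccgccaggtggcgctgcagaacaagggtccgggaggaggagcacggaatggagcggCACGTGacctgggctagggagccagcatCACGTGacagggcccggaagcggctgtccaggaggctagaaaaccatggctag

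The AP-1 match began 123 bases before the start in the first of the 2 Slc7a1 windows and 107 before it in that of Slc37a2. The E-box began 106 bases before the start of Slc12a9 and 31 and 3 bases before that of Slc36a1. Of the other members called higher in the adult set, Slc38a10 held an AP-1 match; E-box matches also occurred in members that fell without Dicer, Slc39a8, Slc39a11, Slc12a7 and Slc25a1. A match is a description of these letters and not a binding site.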

How the data were processed

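The authors sorted microglia, captured RNA with oligo(dT) and sequenced 46 libraries; the submitters' processing notes name bcl2fastq, HISAT 0.1.5, SAMtools, HOMER, DESeq2 and mouse build mm9. The 4 deposited tables hold signal values, which are read numbers times 1 factor per library: dividing by the value of 1 read gave whole reads (tolerance 0.1 read) for 100% of values, also in the 7 libraries without a value of 1 read. Libraries held 898451 to 4573063 reads, which sets the precision of low genes. The main test was limma 3.58.1 (R 4.3.3) on log2(value + 1), which understates changes of low genes, fitted to all groups of a table (P0 on its own 5 libraries), after leaving out genes that reached a value of 1 in fewer libraries than the smallest group holds, with Benjamini-Hochberg adjustment over all genes. Errors of differences are SE and of means SD. Alternatives were edgeR 4.0.16 and DESeq2 1.42.0 on recovered reads, pseudocounts of 0.1 and 5, no filter, only the groups compared, a replicate block and each library left out; code was tested on simulated data. Genes named are mainly those called, nearest to a call, or with the largest stage differences; other members named were chosen after their values were seen. Members and lists were chosen with earlier results of these data known. Sequences come from GRCm38, and no coordinates of the authors' mm9 build were used. Groups follow the sample labels; the series text gives 3 rather than 4 Dicer-deficient LPS libraries in whole brain.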

Additional observations from a re-analysis of the deposited data

Results flagged for a closer look

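In 87 groups of 4 or 5 libraries looked at for the members described, 9 held a library far from the others, where chance flags about 1 in 20 groups. Library 33 of the whole-brain controls after LPS gave 5 of them, each as the highest value: Slc46a1 at 298 (the other 3 at 103 to 126), Slc40a1 at 313 (44.8 to 66.6), Slc46a3 at 249.6 (16.2 to 35.1), Slc37a2 at 321 (60.5 to 98.5) and Slc29a3 at 1603 (655 to 806). Library 17 of the same group was lowest for Slc11a1, at 1080.4 (the others at 1658 to 1743). Of the Dicer-deficient libraries after LPS, library 36 was lowest for Slc12a7, at 33 (60.2 to 65.6), and highest for Slc31a1, at 399.9 (282 to 301). In the adult set control library 2 was lowest for Slc36a1, at 622 (902 to 914).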

How the results depend on the processing

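No called difference named here changed its direction under any alternative run. Differences near 0 can turn when 1 library is left out. Examples are the LPS differences of Slc9a8 in hippocampal Dicer-deficient (-0.06 ± 0.37) and whole-brain control microglia (0.06 ± 0.22). Counts of members called moved by over 1.5 times as follows. In whole brain at steady state, the 7 calls for loss of Dicer became 4 with a pseudocount of 0.1, without a filter and under edgeR with either scaling (TMM or RLE). The LPS by genotype test in whole brain gave 1 call with a pseudocount of 5 and 6 under DESeq2. In hippocampus, loss of Dicer gave 1 call at steady state with only the groups compared and 3 under DESeq2, and after LPS 0 with only the groups compared and 2 under DESeq2. At P0, where 2 were called, a pseudocount of 0.1 gave 0, a pseudocount of 5 and no filter 5 each, edgeR with either scaling and DESeq2 8 each, and all 5 controls 15.

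Leaving out 1 library at a time gave 6 to 12 calls for Dicer in adults, 1 to 4 in whole brain at steady state and 15 to 26 after LPS, 14 to 45 for LPS in whole-brain controls (45 without library 33), 35 to 48 in whole-brain Dicer-deficient microglia, and 0 to 2 for LPS by genotype. In hippocampus it gave 0 to 0 for Dicer after LPS, 0 to 7 for LPS in controls and 5 to 13 in Dicer-deficient microglia, and at P0 0 to 45. Where 1 library of a group was left, it was assumed to vary as the others do.

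Deviations of same-numbered adult libraries correlated at -0.0112, 0.0026 and -0.00997, within the range of the other adult pairs (-0.0188 to 0.0255). Those of the 2 same-numbered P0 pairs correlated at 0.0865 and 0.0536, and the other P0 pairs at -0.0865 to 0.05. With 2 Dicer-deficient libraries at P0, their deviations mirror each other, so these values cannot decide whether replicate numbers pair the P0 libraries. With a replicate block 8 members were called in the adult set and 10 at P0. Groups of 2 or 3 libraries and a median of 82 reads per member in the adult set limit what could be called.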
